A study of Mus musculus with 4 samples.

Results

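RFX2 binding in mouse testis was examined at 8 genes grouped here with the transition zone of the cilium, namely Cep290, Rpgrip1l, Cc2d2a, Tmem138, Sdccag8, Nphp4, Iqcb1 and Invs. The genes were chosen by name as the nephronophthisis (NPHP) and CEP290 group, and make up 8 of the 21938 protein-coding genes annotated on the nuclear chromosomes. A promoter was taken as the stretch from 1000 bp upstream to 500 bp downstream of any annotated transcription start site (TSS) of a gene. A gene was counted as bound when at least 1 bp of a deposited peak overlapped such a promoter.

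Binding was measured by ChIP-seq, where chromatin fragments held by a protein are pulled down with an antibody, here against RFX2, and their DNA is sequenced. Per the labels the samples were decapsulated testes of wild type mice on a mixed C57BL/6, 129/Sv and FVB/N background at postnatal day 29 to 30, whereas the text of the study gives dissociated germ cells and a younger age, and this conflict could not be settled from the lists. They fall into 2 RFX2 ChIP samples (replicates 1 and 2) and 2 input samples without antibody, and the inputs entered only through the authors' peak calls. The peak lists hold 39825 peaks for replicate 1, 21274 for replicate 2 and 2726 for a shorter list referred to as combined, whose peak names point to a call on both replicates together. Read depth is unknown from these lists, so a longer list can reflect a more deeply sequenced library, and the position of a peak in its list is given by rank. Either preparation holds germ cells of several stages, and binding in more cells cannot be told apart from more binding per cell. The labelled tissue could not be checked against marker genes, as the lists hold no expression values.

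The transition zone is the stretch between the basal body and the shaft of the cilium where Y-shaped links tie the microtubule doublets to the membrane. It acts as a gate for the proteins that enter and leave the cilium, and its parts are grouped by genetics into an MKS module, an NPHP module and CEP290. Mutations in these genes cause nephronophthisis, Joubert syndrome and related disorders of kidney, retina and brain, and sperm build a flagellum from the same kind of base. RFX factors are known regulators of ciliary genes and bind the X-box, an inverted repeat of a short half-site.

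RFX2 peaks were found in every list at the promoters of 4 of the 8 genes, in a single replicate at 2 and in no list at 2. In the combined list 4 of 8 had a promoter peak, against 5.26% of all protein-coding genes, and these were Tmem138, Sdccag8, Rpgrip1l and Cep290. All 4 also had a promoter peak in each replicate, which the making of the combined list can build in, since the study's methods kept peaks reproducible between the replicates (irreproducible discovery rate), while 9.05% of protein-coding genes had one in both replicate lists. Replicate 1 had a peak at 5 of 8 promoters (14% of protein-coding genes) and replicate 2 at 5 of 8 (11.3%). The additional gene was Nphp4 in replicate 1 and Cc2d2a in replicate 2, so that 2 of 8 were bound in exactly 1 replicate (7.16% of protein-coding genes). Iqcb1 and Invs made up the 2 of 8 bound in neither replicate, as were 83.8% of protein-coding genes. The study itself named Tmem138, Sdccag8, Rpgrip1l and Cep290, among other transition zone genes, as bound on these samples, so their count is not independent evidence. No test between groups was made, since no list was given for the inputs.

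The sequences at the summits of the 4 combined promoter peaks are shown because they differ in how closely they match the site that RFX factors bind. The X-box was searched as the 14-bp palindrome GTTGCCATGGCAAC, made of the half-site GTTGCCA and its reverse complement, on both strands in 200 bp around the summit of the combined peak, with at most 3 mismatches. Each line shows the best match of that window in capitals with 8 bases on each side, 5′ to 3′ on the strand of the gene (GRCm38).
Tmem138: gagcgagtGTTCCCATGACAACcgacgtcg
Rpgrip1l: gcgccctgGGCGCTATAGCAACcggtagct
Sdccag8: cgccaaccCGTCTCTTGGCAACagcctcag
Cep290: gtcgcctaGCAGCCGGCGCCGCttcggctc

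Of these 4 promoters, only that of Tmem138 held an X-box by this definition. Its match at chr19:10577102-10577115 had 2 mismatches, written as G4C and G10A (palindrome base, position from 1 at its 5′ end, genomic base), and lay 2 bp from the summit in the 5′ UTR of the gene. Rpgrip1l came closest among the others, with 4 mismatches (T2G, T3C, C6T and G9A) at chr8:91313231-91313244, 67 bp from the summit. At Sdccag8 the best match had 5 mismatches (G1C, T2G, G4C, C5T and A7T), all in the left arm, and its middle lay 1 bp from the summit at chr1:176814670-176814683. The right arm of this match, TGGCAAC, is an intact half-site. The Cep290 window held nothing closer than 7 mismatches, at chr10:100487597-100487610.

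Among the 1003 combined peaks at promoters of protein-coding genes, 58.9% held an X-box at the summit by the same rule, and among all 2726 combined peaks 75.4%. In windows of the same length placed 1000 bp to the right of the promoter summits the share was 0.798%. A match as poor as that of Cep290 was rare, since 5 of the 1003 promoter peaks had no match under 7 mismatches. With the whole promoter of the 5′-most coding TSS searched instead, 1 of the 8 genes held an X-box, again Tmem138, against 8.96% of 21853 protein-coding genes. At up to 4 mismatches 4 of 8 did (Tmem138, Rpgrip1l, Nphp4 and Invs), against 41.6% of protein-coding genes. A match describes the letters of the window and does not show where RFX2 was held.

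**Figure D1:**
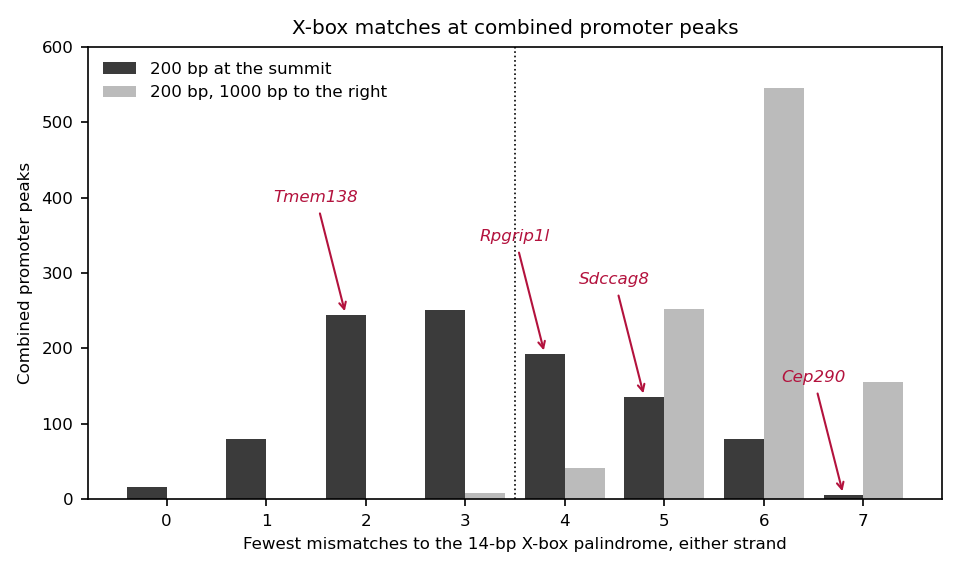
Number of combined promoter peaks (y axis) by the fewest mismatches to the 14-bp palindrome (x axis), in 200 bp at the summit (dark bars) and in 200 bp placed 1000 bp to the right (grey bars), with arrows at the bars that hold the 4 bound genes. Tmem138 sits at 2 mismatches on the X-box side of the dotted line, while Rpgrip1l, Sdccag8 and Cep290 sit at 4, 5 and 7. The flank bar is lower than the summit bar at 4 mismatches (41 against 192). It is higher at 5 (252 against 135) and at 7 (155 against 5).

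Shorter forms of the site were looked at after these matches were seen. The intact half-site GTTGCCA, on either strand, occurred at the summit of Sdccag8 alone among the 4, and at 36.3% of the 1003 promoter peaks and 1.3% of their flanks. Its first 5 letters, GTTGC, occurred at the summits of Tmem138, Rpgrip1l and Sdccag8 and at 81.2% of promoter peaks, against 19.7% of flanks. Cep290 lacked these 5 letters in the window and in its whole peak of 707 bp. Allowing the arms GTTGCC and GGCAAC to stand 0 to 5 bases apart, with at most 2 mismatches in all, added none of the genes to Tmem138. Rpgrip1l, Sdccag8 and Cep290 had at least 3 mismatches at every spacing, and the spacing of 2 bases that the palindrome has was the most frequent, at 50.8% of promoter peaks.

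Tmem138, which encodes a small membrane protein with several membrane-spanning segments mutated in Joubert syndrome, had the strongest promoter peak of the 8 genes in each list. Its peak scored 243 on the −log10 scale in replicate 1 (rank 55 of 39825) and 76.3 in replicate 2 (rank 233 of 21274). The combined peak at chr19:10576399-10577772 had a −log10 p of 281, rank 66 of 2726 and a fold enrichment of 24.9 over local background. This placed it above 95.6% of the promoter peaks of the combined list. Its summit lay 3 bp upstream of the nearest of the 4 annotated start sites of Tmem138.

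Sdccag8, which encodes a centrosomal protein found at the distal end of the centrioles, ranked next. The peak scored 93.9 in replicate 1 (rank 742) and 53.1 in replicate 2 (rank 477). The combined peak at chr1:176814305-176815254 had a −log10 p of 133 (rank 633) and a fold of 14.1, with the summit 15 bp downstream of the TSS. Among combined promoter peaks 65.3% scored lower, so the peak stood above the middle of the list but well below that of Tmem138.

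Rpgrip1l encodes the scaffold on which other transition zone proteins assemble. At its promoter the score was 68.4 in replicate 1 (rank 1213) and 45.6 in replicate 2 (rank 595). The combined peak at chr8:91312820-91313637 had a −log10 p of 93.8 (rank 1135) and a fold of 9.82. The summit lay 42 bp upstream of the TSS, outside any annotated transcript. Among promoter peaks 44.4% scored lower, which puts this peak slightly under the middle.

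Cep290, the coiled-coil protein of the Y-shaped links, had the weakest of the 4 peaks. It scored 50.9 in replicate 1 (rank 1761) and 10.9 in replicate 2 (rank 3259). The combined peak at chr10:100487294-100488000 had a −log10 p of 50.6 (rank 2368) and a fold of 7.35, and the summit was in the 5′ UTR, 42 bp past the TSS. Only 9.07% of promoter peaks scored lower.

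The order Tmem138, Sdccag8, Rpgrip1l, Cep290 was the same by score in all 3 lists (by peak width in replicate 2, Rpgrip1l at rank 920 preceded Sdccag8 at rank 1267), and the combined list is taken to share its reads with the replicates. The lists differ in length, so a ratio of scores is read here only against the same ratio at other peaks. The ratio of the replicate 1 score to the replicate 2 score was 3.18 at Tmem138, 1.77 at Sdccag8, 1.5 at Rpgrip1l and 4.67 at Cep290. Over the 2366 combined peaks met by 1 peak of each replicate this ratio had a median of 2.52, with 5th and 95th percentiles of 1.2 and 6.15, so that none of the 4 fell outside. The centres of the replicate peaks lay 17 bp apart at Sdccag8, 44 bp at Rpgrip1l, 121 bp at Cep290 and 122 bp at Tmem138, where the median over the same peaks was 62 bp and the 95th percentile 192 bp. In fold enrichment, Sdccag8, Rpgrip1l and Cep290 fell below the median of the combined promoter peaks (15.0), and Tmem138 was above it.

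**Figure D2:**
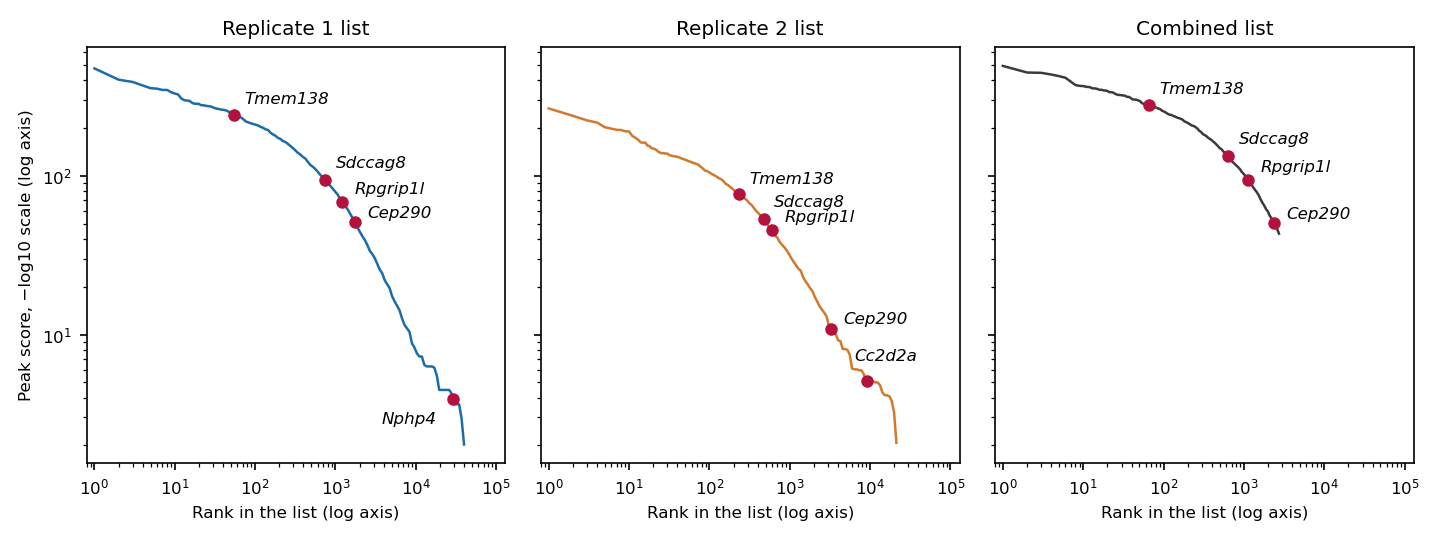
Peak score on the −log10 scale (y axis, log) against rank (x axis, log) in the 3 lists, with promoter peaks of the 8 genes marked on the curve of all peaks. Tmem138, Sdccag8, Rpgrip1l and Cep290 follow in this order in each panel, while Nphp4 (score 3.92) and Cc2d2a (5.06) lie far down the curve of 1 replicate each.

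The promoters of the 4 bound genes were all shared with another protein-coding gene that starts on the opposite strand. For comparison, counted by peak, 16.1% of the 1003 combined promoter peaks met promoters of more than 1 protein-coding gene. The Tmem138 peak also covered the promoter of Cyb561a3, a membrane protein of the cytochrome b561 family. The transcripts of the pair overlap at their starts, and the summit lay 62 bp upstream of the nearest Cyb561a3 TSS. At Sdccag8 the other gene was Cep170, which encodes a centrosomal protein of the mother centriole, with its TSS 593 bp away and 608 bp from the summit. Rpgrip1l shared its peak with Fto, an RNA demethylase whose TSS lay 263 bp away and 221 bp from the summit. Cep290 shared its peak with Tmtc3, which encodes a protein of the endoplasmic reticulum, 208 bp away and 250 bp from the summit. In each of the 4 pairs the summit was nearer to a TSS of the transition zone gene than to one of its neighbour. At Tmem138 this holds only through a later start site, since the summit lay 252 bp downstream of the 5′-most Tmem138 TSS. The peaks cannot be assigned to either gene of a pair.

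Head-to-head partners were not limited to the bound genes. A protein-coding TSS on the opposite strand within 1000 bp was present for 7 of the 8 genes, Cc2d2a being the exception, and for 12.3% of all protein-coding genes. Of the 1153 protein-coding genes with a combined promoter peak, 28.1% had such a partner. Iqcb1 (with Eaf2, 124 bp apart) and Invs (with Erp44, 202 bp apart) had this arrangement without an RFX2 peak at the shared start in any list. Among all protein-coding genes with such a partner 12% had a combined promoter peak, against 4.31% of those without, and a shared peak counts for both of its genes.

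**Figure D3:**
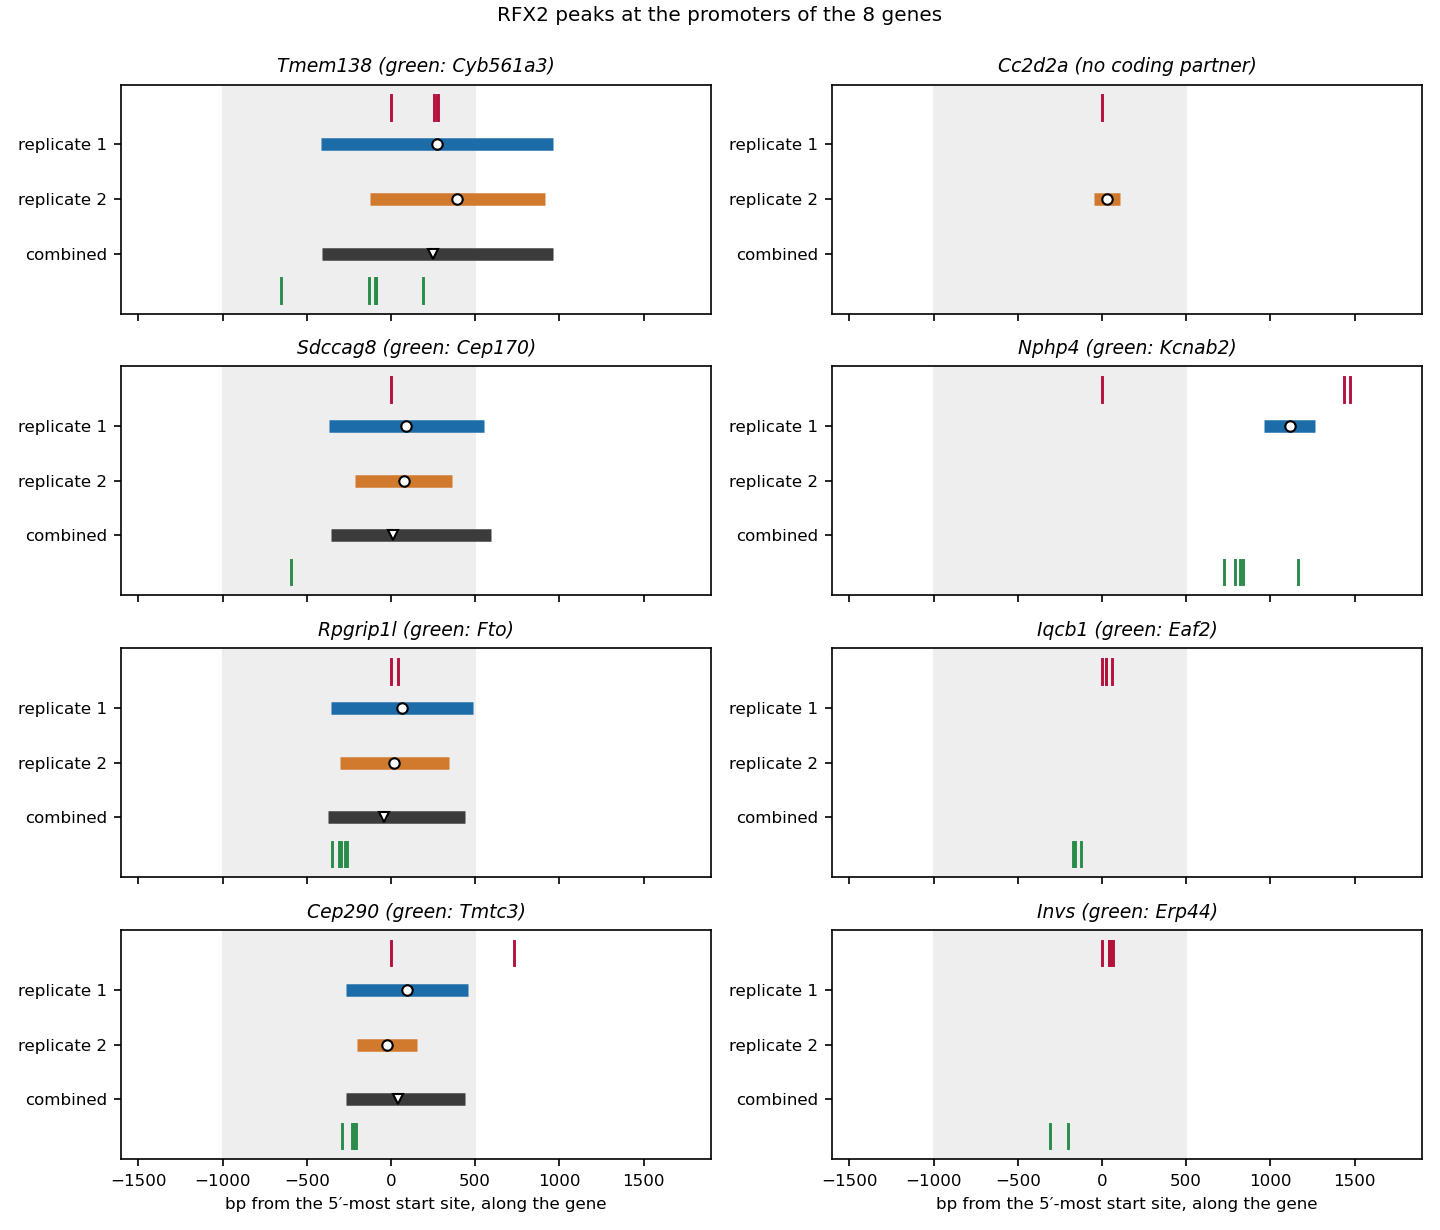
Peaks of replicate 1 (blue), replicate 2 (orange) and the combined list (dark) around the promoter of each gene, in bp from its 5′-most start site, with circles at peak centres and triangles at combined summits. Red ticks are start sites of the gene, green ticks those of its opposite-strand neighbour, and the grey band is the promoter of the 5′-most start site. The 4 genes on the left have 3 overlapping peaks around their start, Cc2d2a and Nphp4 have 1 short peak each in this window, and Iqcb1 and Invs have none in it.

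The 2 promoters bound in a single replicate had weak peaks. Cc2d2a, whose product belongs to the protein complex at the ciliary membrane, had a replicate 2 peak at chr5:43662299-43662454 that covered its TSS. Its score of 5.06 (rank 9094 of 21274) was shared by 2417 peaks of that list, and its width of 156 bp is the smallest in the list, shared by 8041 peaks. Of the 2417 peaks with this score 16.2% were met by a replicate 1 peak, and of the 88 among them at promoters 20.5% were. Replicate 1 had its nearest peak 7879 bp from a Cc2d2a TSS and 42.2 kb into the gene, in an intron, with a score of 3.64.

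Nphp4 encodes a scaffold protein that binds RPGRIP1L. Its peak at chr4:152477667-152477973 was listed in replicate 1 with a score of 3.92 (rank 28749 of 39825). It lay 1.11 kb downstream of the 5′-most TSS, and counted as a promoter peak because further Nphp4 transcripts start nearby, the closest 322 bp beyond its centre. The centre lay in an exon of Kcnab2, a potassium channel subunit gene on the opposite strand, 51 bp from a Kcnab2 TSS. No other replicate 1 peak had exactly this score. Of the replicate 1 peaks with at least this score 27.2% were met by a replicate 2 peak, and of all replicate 1 peaks 20.2%. For the Cc2d2a peak the share at its score or higher was 58.8%, against 39.2% of all replicate 2 peaks. The nearest peak of replicate 2 and that of the combined list, rank 396 and rank 471, were 63341 bp and 63470 bp away.

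Peaks away from the promoters of the 8 genes were also listed. From 5 kb before to 5 kb after the genes replicate 1 had 18 peaks and replicate 2 had 10, of which 13 and 5 lay outside the promoters of the 8 genes. Of these, 2 of the 13 replicate 1 peaks and 2 of the 5 replicate 2 peaks were met by the other replicate, at 2 sites. Over the whole lists 20.2% of replicate 1 peaks and 39.2% of replicate 2 peaks were met by the other replicate. The first was in an intron of Sdccag8, 184.6 kb downstream of its 5′-most TSS and 1285 bp downstream of its internal TSS by the replicate 1 centre, with a score of 28.5 in replicate 1 (rank 3214, chr1:176999041-176999548) and 15.1 in replicate 2 (rank 2336, chr1:176999163-176999359). It was not among the combined peaks, whose lowest −log10 p is 43.2. The other 5 peaks within Sdccag8 outside its promoter were in replicate 1 alone, with scores of 5.86 to 7.41.

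The second site lay 2354 bp beyond the end of Iqcb1, a gene for a calmodulin-binding partner of CEP290. It scored 183 in replicate 1 (rank 165) and 109 in replicate 2 (rank 86). The combined peak at chr16:36874507-36875370 had a −log10 p of 231, rank 153 and a fold of 18.6. It was thus stronger than the promoter peaks of Sdccag8, Rpgrip1l and Cep290, and weaker than that of Tmem138 in the combined list. The summit lay 65 bp upstream of Golgb1, which encodes the Golgi protein giantin, and 72 bp upstream of a distal TSS of Eaf2, a transcription elongation factor gene that runs back across Iqcb1. An unclassified transcript, Gm49599, starts at the same place as Golgb1. The 5′-most Iqcb1 start site lay at the far end of the gene, 46.7 kb from the summit. The nearest annotated Iqcb1 start site, inside the gene, was 23482 bp from it. Within Iqcb1 the lists held 1 peak, in an intron in replicate 1, with a score of 6.93.

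Both of these sites held an X-box with 2 mismatches, shown in capitals on the plus strand. That of Sdccag8 is at chr1:176999259-176999272 (G4A and A7G), 29 bp from the replicate 1 centre, and that beyond Iqcb1 is at chr16:36875080-36875093 (G4C and G9A), 11 bp from the summit between the start sites of Golgb1 and Eaf2.
Sdccag8 intron: ctccttcaGTTACCGTGGCAACcagcagat
Beyond Iqcb1: cgtgcctgGTTCCCATAGCAACgccctgag

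The intron of Sdccag8 thus held a closer match to the palindrome than its promoter did, with a lower score in both replicates. Invs encodes inversin, which marks the segment of the cilium just past the transition zone. Its gene body held 3 peaks in replicate 1, with scores of 2.34 to 5.08, and 1 in replicate 2, with a score of 4.14, in introns and without overlap between the replicates. The nearest combined peak was 343285 bp from an Invs TSS. For Cc2d2a it was 219732 bp away. Cep290 had 1 further peak in an intron in replicate 2 (score 5.06), and Rpgrip1l had 1 in each replicate (4.24 and 4.14) at different places. Tmem138 had none besides its promoter peak.

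**Figure D4:**
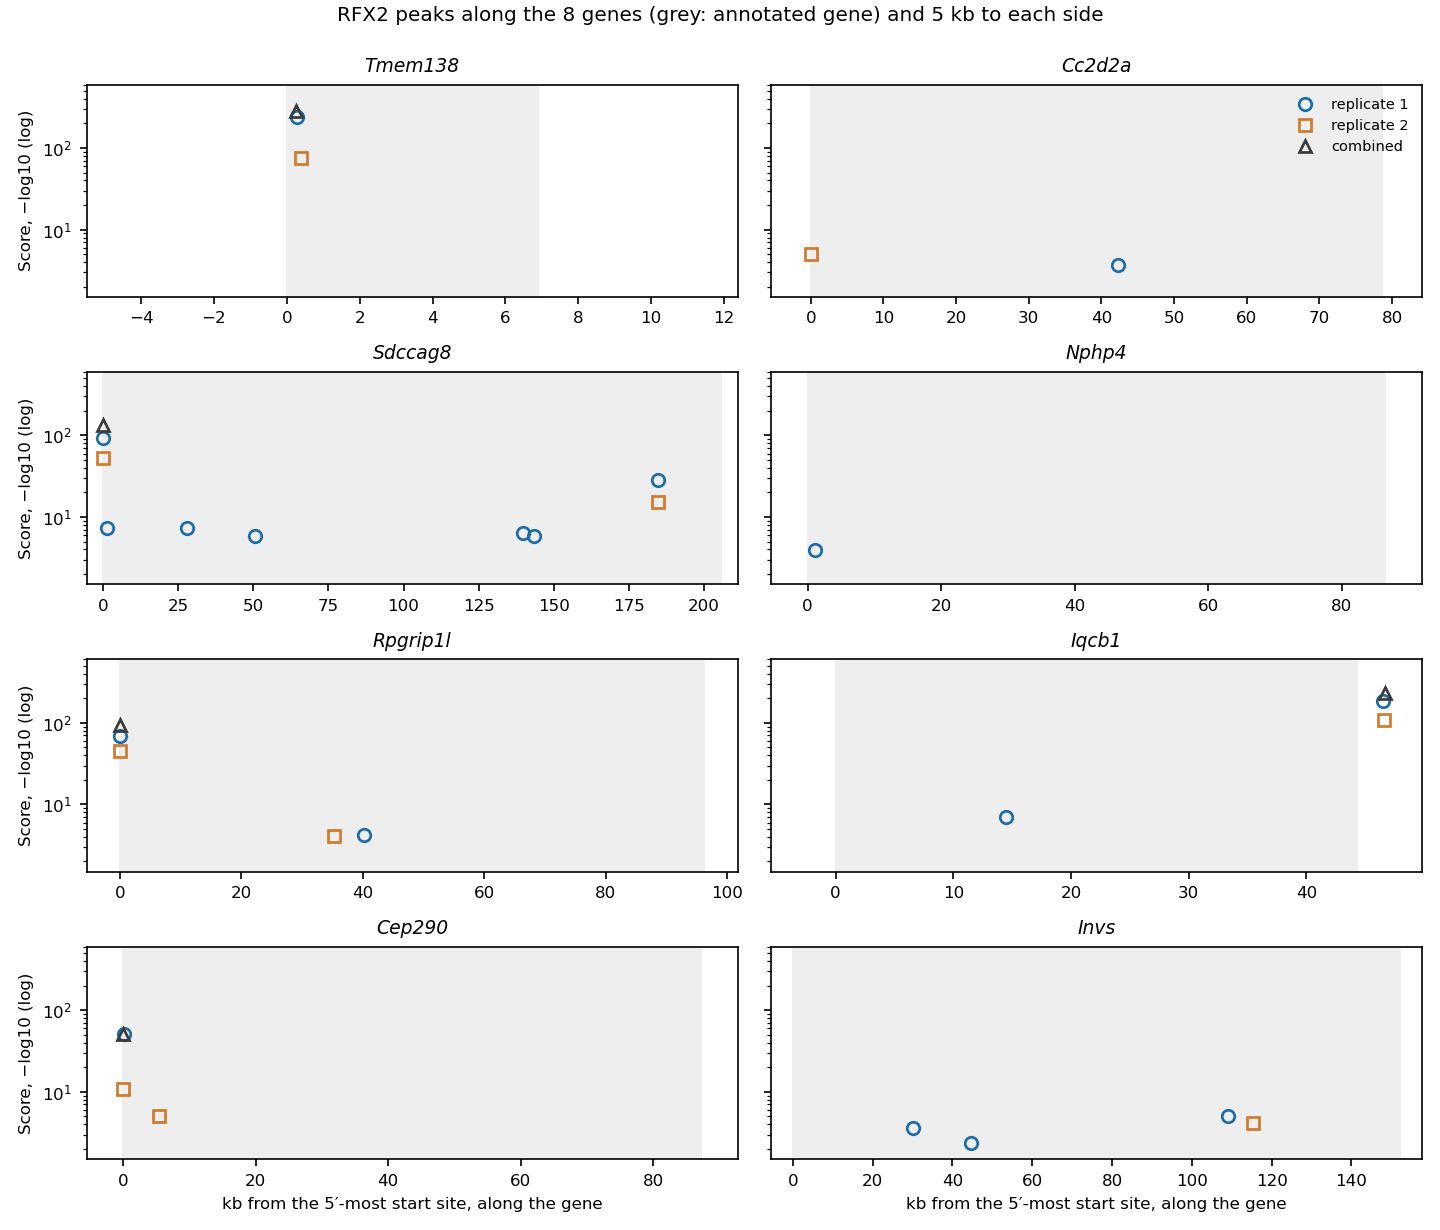
Peak score on the −log10 scale (y axis, log) along each gene and 5 kb to each side (x axis, kb from the 5′-most start site), with circles for replicate 1, squares for replicate 2 and triangles for the combined list. High scores sit at the left end of Tmem138, Sdccag8, Rpgrip1l and Cep290 and past the right end of Iqcb1, and elsewhere the peaks of a single replicate reach at most 7.41.

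Tmem138 has a neighbour of related function, Tmem216, a membrane protein of the MKS module that starts 21124 bp away on the same strand. The 2 genes had separate peaks. That of Tmem216 at chr19:10555376-10556145 had a −log10 p of 52.9 (rank 2274) and a fold of 7.85, with its summit 2 bp downstream of a TSS, and scored 40.9 in replicate 1 (rank 2197) and 24.6 in replicate 2 (rank 1389). No list had a peak between the promoters of the pair. The genes whose best promoter peaks had ranks most like those of Tmem138 in both replicates were Chd4, a chromatin remodelling ATPase (ranks 62 and 269), Yeats2, a reader of acylated histones (63 and 182), and Cfap161, a ciliary protein (52 and 160). The likeness was the sum of absolute differences in log10 rank over the 2 lists, at 0.114, 0.166 and 0.188.

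Genes of the same pathway differed in how many were bound. All 14 listed genes of the MKS module (Tctn1, Tctn2, Tctn3, B9d1, B9d2, Mks1, Tmem216, Tmem231, Tmem17, Tmem237, Tmem107, Tmem218, Tmem67 and Ahi1) were bound at their promoters in all 3 lists. In the combined list this compares with 4 of the 8 genes of the NPHP and CEP290 group and 5.26% of protein-coding genes. The study named most of these MKS genes as bound on the same samples, so the count is not independent evidence, and Cc2d2a, whose product also works with the MKS module, is counted among the 8. Of 11 other nephronophthisis genes (Glis2, Nek8, Ttc21b, Wdr19, Zfp423, Cep164, Anks6, Ift172, Cep83, Dcdc2a and Mapkbp1) 4 had a combined promoter peak, 5 a peak in replicate 1 and 6 in replicate 2. The best-ranked were Ift172, an anterograde intraflagellar transport gene (−log10 p 95, rank 1115, fold 12.7), Dcdc2a, a doublecortin family gene (93.0, rank 1143, fold 21.4), and Mapkbp1 (90.7, rank 1191, fold 14). The ranks of these genes were close to that of Rpgrip1l. Nek8, whose product is a kinase that acts with inversin, had no promoter peak in any list, like Invs. The nearest replicate peak was 7043 bp from a Nek8 TSS.

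Of 7 further partners of CEP290 or the NPHP proteins (Rpgr, Rpgrip1, Atxn10, Ofd1, Cep162, Pcm1 and Cep131), 5 had a promoter peak in replicate 1, 4 in replicate 2 and 1 in the combined list. The gene in the combined list was Cep162, which encodes a microtubule-binding protein that recruits CEP290, with a −log10 p of 220, rank 183 and a fold of 16.4. It scored 164 in replicate 1 and 106 in replicate 2. The promoter of this partner thus had a higher rank than that of Cep290 itself in each list.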

How the data were processed

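RFX2 ChIP and input libraries were made by the authors from testes of WT mice. Reads were mapped by the authors to GRCm38, reads with several locations were discarded, and peaks were called with MACS2 against input with a fixed shift. The submitters' processing notes name CASAVA 1.8.2, Bowtie 0.12.7 and MACS2 2.0.10.20130520. Replicate 2 was sequenced again, and reads that mapped to human were removed from that run, which can lower its scores at conserved sequence. In the deposited replicate lists each peak carries a −log10 value that the files do not name as p or q. The lowest values are 2.03 and 2.08, and the study's methods describe a call with a threshold on p. The deposited combined list gives −log10 p, −log10 q, a score equal to the whole part of 10 times −log10 p, the summit, and a fold enrichment, which is a ratio of the signal to the local background. It is attached to replicate 2, but its peak names begin with "all". It was treated as a call on both replicates. The methods select peaks by the irreproducible discovery rate between replicates, and whether this list is that selection is not given in the sources used here.

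Peaks were ranked by score within each list (the smallest rank for ties), with −log10 p for the combined list. Start sites were those of all transcripts in GENCODE mouse release 21, and sequence was read from GRCm38 patch 6, whose chromosomes have the coordinates of the lists. Peaks and promoters were matched with a minimum overlap of 1 bp. Overlap and motif searches were tested on simulated data. Analyses used Python 3.11.15, numpy 2.4.6 and pandas 2.3.3. Replicates come from separate samples, and depth is not given in these lists.

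The 8 genes and the lists of other genes were chosen with earlier results of these data known. Values are given for the 8 genes, for genes that share a promoter peak with them, for the 3 genes nearest in rank to Tmem138, for the 3 best-ranked genes of the nephronophthisis and partner lists in the combined list (the partner list had 1), and for Nek8 and Tmem216. Some genes of the nephronophthisis list are not reported here. Golgb1, Eaf2 and Gm49599 were named after their values were seen. No statistical test was applied, and values of the study's own tables were not used.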

Additional observations from a re-analysis of the deposited data

How the results depend on the processing

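The counts of bound genes were recomputed with start sites of coding transcripts only, with the 5′-most start site only, with a promoter of 500 bp upstream to 50 bp downstream, with the peak centre required inside the promoter, and with the top 50% of each list. Tmem138, Sdccag8 and Rpgrip1l stayed bound in all 3 lists under each of these. Cep290 left the combined count with the top 50% of that list (3 of 8). Nphp4 left the replicate 1 count with the 5′-most start site and with the top 50% (4 of 8 each). The count bound in both replicates was 4, and 5 without either replicate. The count with an X-box was 1 with at most 2 mismatches, in the whole peak and around the peak centre. Alternatives chosen after the data were seen gave 1 with the whole half-site (Sdccag8 in place of Tmem138), 1 with the arms spaced 0 to 5 bases apart, and 3 with the first 5 letters of the half-site. Ranks depended more on the measure. Of the ranks of single promoter peaks, 10 moved by more than 1.5 times when ranked by fold or width and 4 did not. By fold, Tmem138 fell from rank 66 to 491, Sdccag8 from 633 to 1976, Rpgrip1l from 1135 to 2523 and Cep290 from 2368 to 2679, in the same order. By width the order held in replicate 1, and in replicate 2 Rpgrip1l (920) preceded Sdccag8 (1267). No paired analysis was possible because the input samples have no list of their own and no test between groups was made. Without read depth, a gene without a peak cannot be called unbound, and no error can be estimated for weak peaks found in 1 replicate.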

Other observations

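The promoters of Rpgrip1l and Sdccag8, which lacked the X-box at their summit, shared another word, noticed when their sequences were read. The word ACTACNNTTCCCAG occurred in the 200 bp around the combined summit of both, on either strand. It was found in 5 of the 412 combined promoter peaks without an X-box (1.21%), these 2 genes included, in 1 of the 591 with one (0.169%) and in 0 of the 1003 flanks, which allows a share of up to 0.299%. Over whole promoters of the 5′-most coding TSS, 1.2% of 21853 protein-coding genes held it. These promoters are 1501 bp long, so this share is not comparable with those of the 200-bp windows. Among them were Rpgrip1l, Sdccag8 and Invs of the 8 genes, and Invs had no promoter peak. Each of the 2 bound promoters held 2 copies within its combined peak.

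In the stretch of 262 bp between the start sites of Rpgrip1l and Fto, at chr8:91313263-91313524 and outside annotated transcripts, both copies lay on the strand of Rpgrip1l. The stretch is shown 5′ to 3′ on that strand (GRCm38) with the copies in capitals, and the combined summit is at base 221. The middle of the second copy lay 7 bp from the summit, and that of the first 138 bp from it.
Rpgrip1l to Fto: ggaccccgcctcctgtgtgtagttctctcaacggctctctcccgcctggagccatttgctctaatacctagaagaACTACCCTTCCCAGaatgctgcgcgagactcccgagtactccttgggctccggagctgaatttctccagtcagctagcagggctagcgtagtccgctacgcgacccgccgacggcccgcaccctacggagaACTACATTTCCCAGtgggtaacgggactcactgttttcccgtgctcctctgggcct

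At Sdccag8 the copies lay 340 bp upstream and 64 bp downstream of the summit, on opposite strands, with 8 bases shown on each side of the word.
Sdccag8 upstream: caaccaggACTACGATTCCCAGcgggcagc
Sdccag8 downstream: ccagctatACTACGCTTCCCAGagggctat

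The word was chosen because these promoters hold it, so the counts describe it and test nothing. The base composition of the 4 summit windows was 50% G+C at Tmem138, 60.0% at Sdccag8, 63.5% at Rpgrip1l and 67.5% at Cep290, against a median of 59.0% and quartiles of 54.0% and 64.5% over the 1003 promoter peaks. The order of G+C is thus the reverse of the order of scores among these 4 genes, and a relation of G+C to score over the 1003 promoter peaks was not tested. The observed-over-expected ratio of CpG was 0.744, 0.842, 0.944 and 0.880 in the same order of genes, where the median was 0.704.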
